A study of Mus musculus with 2 samples.

Results

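The genes described are 10 interleukins, interleukin antagonists and an interleukin receptor chain, chosen by name out of the 31053 genes of the feature list: Il1a, Il1b, Il1rn, Il18, Il18bp, Il6, Il12b, Il15, Il10 and Il10ra. They were followed across 5328 of 6272 cell barcodes, those in which 200 or more genes were detected and no more than 20% of the unique molecular identifiers (UMIs, which count captured transcripts once) were mitochondrial. The study profiled single cells of the cribriform plate region, the perforated bone between the olfactory bulbs and the nose, in mice with experimental autoimmune encephalomyelitis (EAE), a model of inflammatory demyelination of the central nervous system, and in healthy mice. Both groups were Wild-type C57BL/6J females, 10 weeks old, and each group was 1 pool of cells from 5 mice, so that values of single mice were merged. The sort aimed at meningeal lymphatic endothelial cells, positive for Podoplanin and CD31 and negative for the leukocyte protein CD45. Barcodes carried the suffix 2 or 1, called library 2 and library 1 here. Nothing in the labels or headers ties a suffix to EAE or healthy mice, so the conditions were not compared. With 1 library on each side no replicate exists and nothing was tested, and every interval below is an exact 95% interval that covers counting error only.

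Interleukin-1 alpha and beta are inflammatory cytokines that act through a common receptor, and the product of Il1rn occupies that receptor without activating it. Interleukin-18 is a related cytokine, and the product of Il18bp is a secreted decoy that binds it and keeps it from its receptor. In the brain, microglia and macrophages are known sources of these cytokines, and interleukin-10 is known to restrain cytokine production by macrophages through a receptor whose ligand-binding chain is the product of Il10ra.

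After filtering, library 2 held 1922 cells with a median of 9782.5 UMIs, and library 1 held 3406 cells with a median of 7334 UMIs. The total UMIs of these cells were 20282053 in library 2 and 25766058 in library 1. The label of the tissue went against the transcripts: the 7 microglia markers summed to 9177 CPM (counts normalised to the total UMIs of the cells) in library 2 and 17504 CPM in library 1, whereas the 7 lymphatic endothelial markers summed to 6.90 and 28.3 CPM. Microglia-like clusters held 1718 cells of library 2 and 2744 cells of library 1. The unnamed cluster 7, with 412 cells of library 1, was not counted among them, and the values for microglia-like cells leave it out. In it all 7 microglia markers stood at 100 CPM or more and summed to 18322 CPM. Of the barcode sequences, 8 occurred in both libraries, and no member count changed without them. The sort excluded doublets, per the labels, and none were called here; leaving out the 5% of cells with the most UMIs in each library changed no member count.

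Promoter sequences are shown first for Il1a and Il18bp, the members with at least 20 UMIs whose levels lay furthest apart between the libraries in each direction, and for Il1b and Il12b, whose UMIs gathered in few cells. Each line gives the 250 bases before the gene start in RefSeq (GRCm38.p6), 5′ to 3′ on the strand of the gene, with matches to 6 searched motifs in capitals. The motifs were the interferon-stimulated response element core GAAANNGAA, kappaB GGANTTTCC, AP-1 TGANTCA, C/EBP TTGCNNAA, the gamma-activated site TTCNNNGAA and PU.1 GAGGAA, each searched on both strands.
Il1a, chr2:129309973-129310222, minus strand: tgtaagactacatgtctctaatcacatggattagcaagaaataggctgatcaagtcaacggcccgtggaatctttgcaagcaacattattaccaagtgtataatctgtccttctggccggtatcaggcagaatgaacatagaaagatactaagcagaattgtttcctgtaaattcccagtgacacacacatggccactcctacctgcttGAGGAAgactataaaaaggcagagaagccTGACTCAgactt
Il1b, chr2:129371140-129371389, minus strand: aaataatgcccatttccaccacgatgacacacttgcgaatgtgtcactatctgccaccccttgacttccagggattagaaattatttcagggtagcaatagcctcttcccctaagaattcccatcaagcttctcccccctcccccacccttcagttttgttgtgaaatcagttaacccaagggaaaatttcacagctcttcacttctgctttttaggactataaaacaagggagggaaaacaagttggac
Il18bp, chr7:102018233-102018482, minus strand: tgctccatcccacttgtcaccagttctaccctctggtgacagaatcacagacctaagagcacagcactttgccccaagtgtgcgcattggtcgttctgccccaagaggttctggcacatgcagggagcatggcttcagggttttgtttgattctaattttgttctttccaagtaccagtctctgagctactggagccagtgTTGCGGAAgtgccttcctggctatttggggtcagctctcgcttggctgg
Il12b, chr11:44399813-44400062, plus strand: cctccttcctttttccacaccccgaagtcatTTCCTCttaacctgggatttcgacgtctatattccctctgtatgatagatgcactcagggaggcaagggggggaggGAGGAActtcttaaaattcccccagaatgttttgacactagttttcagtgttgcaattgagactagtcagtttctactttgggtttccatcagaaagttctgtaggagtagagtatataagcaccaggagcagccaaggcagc

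The Il1a promoter held an AP-1 match 12 to 6 bases and a PU.1 match 41 to 36 bases before the start. An AP-1 match was present in 6.75% and a PU.1 match in 23.3% of all 32851 promoters of the same length. The Il1b window held no match to any of the 6 motifs. The Il18bp window held a C/EBP match 49 to 42 bases before the start, a motif found in 9.56% of all promoters. It held no match to the interferon-stimulated core (7.13% of all promoters) or the gamma-activated site (7.02%). In Il12b a PU.1 match lay 143 to 138 bases before the start, and another on the opposite strand 219 to 214 bases before it. Of the members not printed, Il6 held a kappaB match (1.07% of all promoters) 43 to 35 bases before its start with an AP-1 and a C/EBP match further up, and the first of the 3 promoters of Il1rn held an AP-1 match. The promoter of Il18 held none. Promoters were matched by symbol for 7 of the 10 members. Il15, Il10 and Il10ra were not matched.

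Across all kept cells of library 2, Il18bp was the member furthest above its level in library 1, and Il1a, among members with at least 20 UMIs, the member furthest below. A gene counted as past the threshold when its log2 ratio of library 2 over library 1, with a pseudocount of 10 CPM, was at least 1 in size, among the 13891 genes with at least 20 UMIs. Of the 10 members 9 had that many. Of these, 1 was at least 2-fold higher in library 2 (Il18bp), where 2.76% of all genes were, and 1 was at least 2-fold lower (Il1a), where 1.92% of all genes were. The other 7 lay between, and Il10 had too few UMIs to be counted. The median log2 ratio was 0.33 over the 9 members and 0.02 over all genes. The pseudocount understates the ratio of genes at low levels, so folds of the CPM themselves are given beside it.

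**Figure D1:**
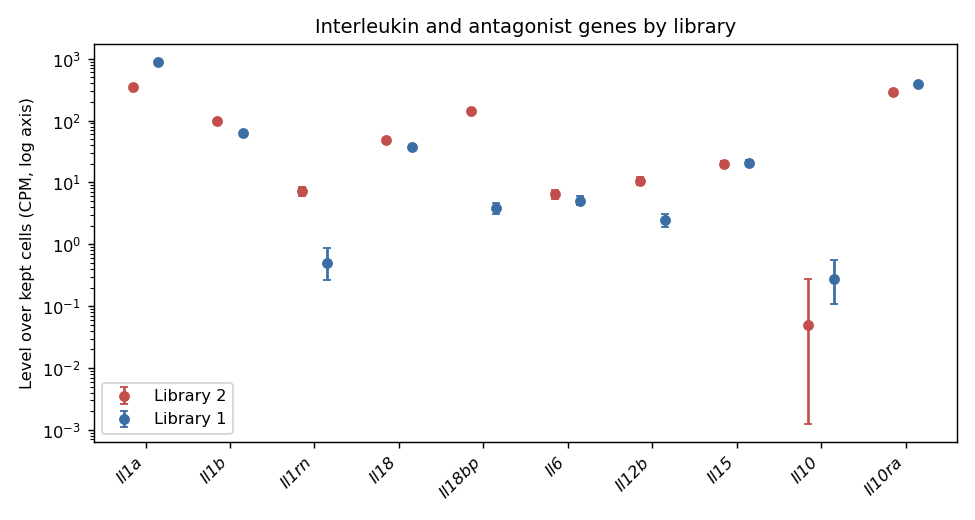
Level of each member over the kept cells of library 2 (red) and library 1 (blue), in CPM on a log axis, with exact Poisson 95% intervals. Il18bp stood at 145 CPM in library 2 and 3.84 CPM in library 1, and Il1a at 345 CPM in library 2 and 871 CPM in library 1.

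**Figure D2:**
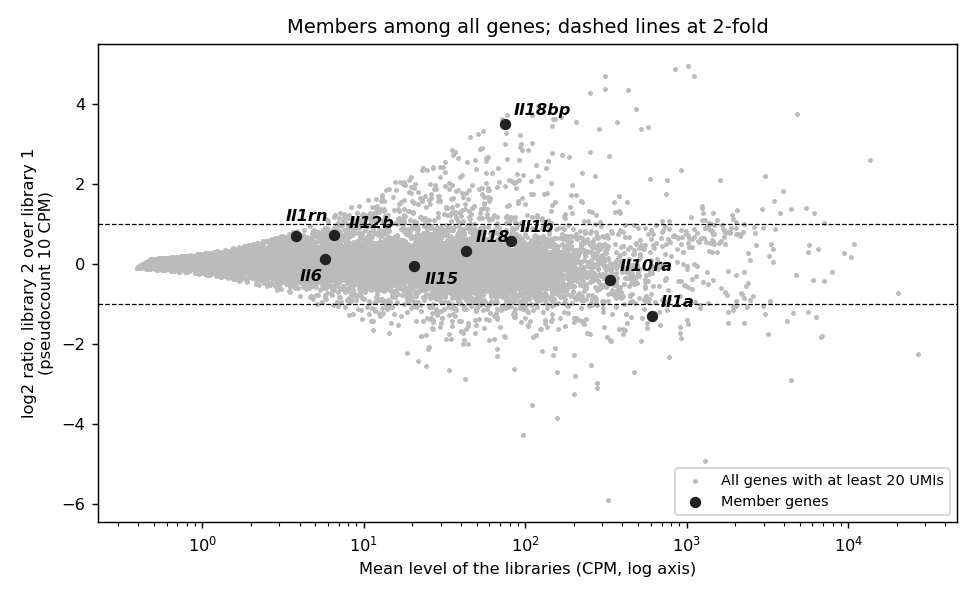
Log2 ratio of library 2 over library 1 against the mean CPM of both libraries (log axis) for all 13891 genes with at least 20 UMIs (grey) and the 9 members among them (black); dashed lines mark 2-fold. Il18bp (3.49) lies above the upper line and Il1a (-1.31) below the lower line.

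Il1a (ENSMUSG00000027399) encodes interleukin-1 alpha, which is active in its precursor form. It had 7000 UMIs and 345 CPM (337 to 353) in library 2, and 22436 UMIs and 871 CPM (859 to 882) in library 1. The fold of library 2 over library 1 was 0.396 (0.386 to 0.407), and the log2 ratio was -1.31. At full depth a UMI of Il1a was found in similar shares of cells, 78.0% in library 2 and 77.0% in library 1. With every cell thinned to 1000 UMIs, so that depth was equal, the shares were 25.7% (23.8% to 27.8%) in library 2 and 39.2% (37.5% to 40.9%) in library 1. Cells with many UMIs were rarer in library 2. At least 20 Il1a UMIs were held by 23 library 2 cells (1.20%) and by 322 library 1 cells (9.45%), and the highest cell held 51 UMIs in library 2 and 115 in library 1.

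Il1b (ENSMUSG00000027398) encodes interleukin-1 beta, whose precursor is cleaved by caspase-1. It stood at 99.4 CPM (95.2 to 104) in library 2 and 63.4 CPM (60.3 to 66.5) in library 1, from 2017 and 1633 UMIs, a fold of 1.57 (1.47 to 1.68). In thinned cells the share with a UMI was 5.56% in library 2 and 3.86% in library 1, and without thinning 20.4% and 9.28%. Unlike Il1a, Il1b was held by a minority of cells, and those cells held much of it. The 1% of cells with the most Il1b held 28.3% of its UMIs in library 2 and 48.4% in library 1, against 7.17% and 9.48% for Il1a. Summed UMIs of Il1b over those of Il1a were 0.288 (0.274 to 0.303) in library 2 and 0.0728 (0.0692 to 0.0765) in library 1. The antisense gene Il1bos overlaps Il1b, and whether counting used strand is not given in the sources used here. It had 35 UMIs over all barcodes of library 2 and 51 over those of library 1.

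Il1rn (ENSMUSG00000026981), the receptor antagonist, was low in both libraries. It had 145 UMIs in library 2, or 7.15 CPM (6.03 to 8.41), and 13 UMIs in library 1, or 0.505 CPM (0.269 to 0.863). The fold was 14.2 (8.03 to 27.3), while the log2 ratio with its pseudocount was 0.71, short of the threshold. UMIs were found in 70 cells of library 2 (3.64%) and 12 cells of library 1 (0.352%). The 1% of cells with the most Il1rn held 64.1% of its UMIs in library 2, and the highest cell held 19 of 145. Counting intervals treat these UMIs as independent, which is a poor description here. After thinning, 12 of 1907 cells of library 2 held one, and 0 of 3319 in library 1, a count that allows up to 0.111%. For each UMI of the agonists, Il1a plus Il1b, there were 0.0161 (0.0136 to 0.0189) UMIs of Il1rn in library 2 and 0.000540 (0.000288 to 0.000924) in library 1. A ratio between genes also holds how well each is captured, so it was set only between the libraries.

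Il18 (ENSMUSG00000039217), the interleukin-18 gene, differed less than its decoy. It had 997 UMIs and 49.2 CPM (46.2 to 52.3) in library 2, and 959 UMIs and 37.2 CPM (34.9 to 39.7) in library 1, a fold of 1.32 (1.21 to 1.44). No cell held more than 5 UMIs in either library. Olfactory sensory neuron-like cells, which are not known as a source of these cytokines, were taken as a measure of free RNA. They numbered 37 in library 2 (median 11227 UMIs) and 7 in library 1 (median 13704 UMIs). Il18 had a UMI in 10 of the 37 and in 2 of the 7, against 38.7% of all kept cells in library 2 (median 9783 UMIs) and 23.7% in library 1 (median 7334 UMIs). With 7 such cells, at a higher depth, the share of them with Il18 in library 1 was not resolved. Il1a had a UMI in 2 of the 37 and 1 of the 7 cells. Il1b, Il1rn, Il6, Il12b, Il15 and Il10 had none, and 0 of 37 cells allows a share of up to 9.49%. In the 37 cells the counts were 13 UMIs of Il18, 2 of Il1a and 1 of Il10ra. The whole of library 2 held 997 UMIs of Il18, 7000 of Il1a and 5857 of Il10ra. Il18 in these cells thus stood out from the library totals, and whether its UMIs there were free RNA was not tested.

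Il18bp (ENSMUSG00000070427), the interleukin-18 binding protein, had 2949 UMIs in library 2 and 99 UMIs in library 1. The levels were 145 CPM (140 to 151) and 3.84 CPM (3.12 to 4.68), a fold of 37.8 (31.0 to 46.7) and a log2 ratio of 3.49. It was spread over most cells of library 2, with a UMI in 67.8% of them, against 2.35% in library 1. In thinned cells the shares were 13.9% (12.4% to 15.5%) in library 2 and 0.151% (0.0489% to 0.351%) in library 1. Sensory neuron-like cells held it in 2 of 37 in library 2 and 1 of 7 in library 1, 1 UMI each. With 7 such cells, whether the share in library 1 was above background was not resolved. For each UMI of Il18 there were 2.96 (2.75 to 3.18) UMIs of Il18bp in library 2 and 0.103 (0.0831 to 0.127) in library 1. The gene Numa1 on the opposite strand shares exon sequence with Il18bp, and its own count was 1370 UMIs over all barcodes of library 2 and 1585 over those of library 1.

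Il6 (ENSMUSG00000025746), a cytokine of the acute phase response, was rare. It had 130 UMIs and 6.41 CPM (5.36 to 7.61) in library 2, and 131 UMIs and 5.08 CPM (4.25 to 6.03) in library 1, and the interval of the fold (1.26; 0.981 to 1.62) includes 1. At 1000 UMIs a cell, 4 cells of library 2 and 8 of library 1 held a UMI, so a difference was not detectable at this depth.

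Il12b (ENSMUSG00000004296) encodes p40, the chain common to interleukin-12 and interleukin-23, both of which act on T cells. It stood at 10.6 CPM (9.23 to 12.1) in library 2 and 2.45 CPM (1.88 to 3.13) in library 1, from 215 and 63 UMIs, a fold of 4.34 (3.26 to 5.84) and a log2 ratio of 0.73. Few cells held it, 47 of library 2 (2.45%) and 10 of library 1 (0.294%). A single cell of library 1 held 25 of the 63 UMIs there, and the highest cell of library 2 held 34 of 215. The 1% of cells with the most Il12b held 83.3% of its UMIs in library 2 and 100% in library 1. Counting intervals treat these UMIs as independent, which is a poor description when so few cells carry them.

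Il15 (ENSMUSG00000031712), a cytokine that sustains natural killer and memory T cells, had 19.8 CPM (17.9 to 21.8) in library 2 and 20.9 CPM (19.2 to 22.7) in library 1. Its fold was 0.947 (0.830 to 1.08), an interval that includes 1, and the thinned shares were 2.15% in library 2 and 2.02% in library 1.

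Il10 (ENSMUSG00000016529), the gene of interleukin-10, was close to absent, with 1 UMI in library 2 and 7 UMIs in library 1. Of the 7, 6 lay in 1 cell. Its receptor chain Il10ra (ENSMUSG00000032089) was widespread, with a UMI in 85.4% of cells of library 2 and 86.6% of library 1. Il10ra stood at 289 CPM (281 to 296) in library 2 and 384 CPM (377 to 392) in library 1, a fold of 0.751 (0.727 to 0.776). Thinned shares were 24.1% and 31.3%, and sensory neuron-like cells held it in 1 of 37 and 1 of 7.

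**Figure D3:**
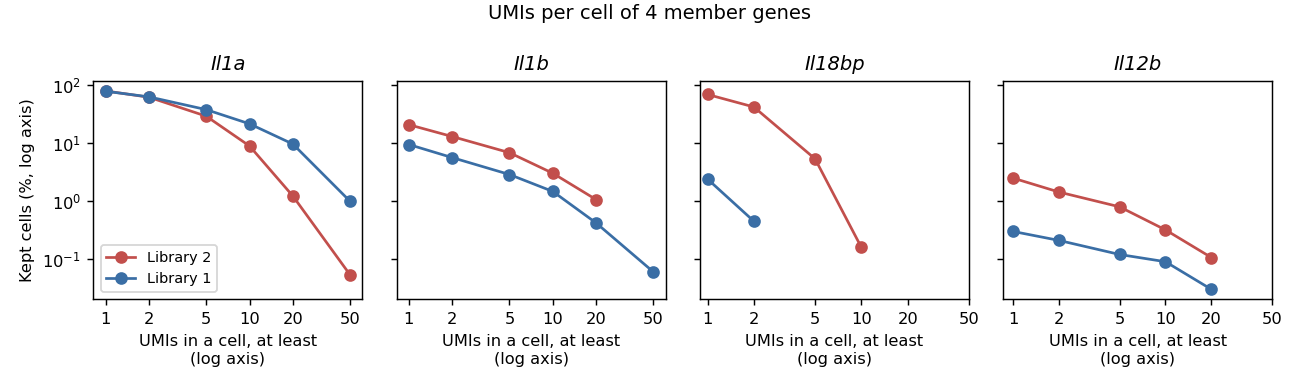
Share of kept cells (percent, log axis) with at least the number of UMIs on the x axis (log axis) for Il1a, Il1b, Il18bp and Il12b, in library 2 (red) and library 1 (blue); points at 0 are not drawn. The Il1a curves meet at 1 UMI (78.0% and 77.0%) and part at 20 UMIs (1.20% and 9.45%), while those of Il18bp are apart from 1 UMI on (67.8% and 2.35%).

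Cells were clustered without the members, the other interleukin genes and the response lists among the variable genes, and 14 combinations of cluster and library held at least 50 cells, 6 of library 2 and 8 of library 1. The libraries barely mixed. Clusters 1, 6, 8 and 10 held nearly all of the microglia-like cells of library 2, and clusters 2, 3, 4, 5 and 12 nearly all of those of library 1. A cluster held by 1 library may be that library rather than a cell type, so clusters are named by number and leading genes.

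Il1a was spread unevenly over the cells of library 1. Cluster 3, with 732 cells led by Gadd45b and Ankrd33b, held 13358 of the 22436 Il1a UMIs of library 1 and stood at 2212 CPM (2174 to 2249), and Il1a was itself among its 5 highest folds. Thinned to 1000 UMIs, 77.9% of those cells still held a UMI of Il1a. The next units of library 1 were the unnamed cluster 7 (685 CPM) and cluster 4 (676 CPM), whose intervals overlap. Cluster 12 (483 CPM) came after them, then cluster 9 (380 CPM), cluster 2 (302 CPM), the epithelium-like cluster 13 (232 CPM) and cluster 5 (207 CPM).

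In library 2 the order of Il1a levels was cluster 8 (497 CPM; 474 to 521), cluster 1 (427 CPM; 413 to 441), the dividing cluster 10 (253 CPM), the ensheathing glia-like cluster 11 (248 CPM), cluster 6 (224 CPM) and cluster 9 (53.9 CPM). The intervals of clusters 10, 11 and 6 overlap. Every unit of library 2 lay below cluster 3 of library 1. Without cluster 3, Il1a stood at 345 CPM in library 2 and 460 CPM in library 1, a log2 ratio of -0.40, and was no longer past 2-fold. Cluster 3 held cells of library 1 alone and was left out after seeing the data. Leaving out the highest cluster of 1 side could only bring the libraries closer in Il1a.

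Il1b, Il1rn and Il12b had their highest level of library 2 in cluster 8, 252 cells led by the interferon-gamma-induced chemokine gene Cxcl9 and by Cxcl13 and Acod1. Il1b stood at 273 CPM (256 to 291) there, with 116 of 252 cells positive, and cluster 10 was next with 94.4 CPM. The few library 1 cells of these clusters stood higher, at 440 CPM (334 to 569) in 6 cells of cluster 8. In 26 library 1 cells of cluster 10, Il1b stood at 165 CPM (125 to 213). Each of these library 1 levels came from 58 UMIs in 5 cells. The 5 and 4 library 1 cells of clusters 1 and 6 held 0 UMIs of Il1b. Il1rn stood at 24.5 CPM (19.5 to 30.3) in cluster 8, which held 85 of its 145 UMIs. Il12b stood at 47.2 CPM (40.3 to 55.0) in cluster 8, where 23 cells held 164 of its 215 UMIs. In cluster 6, with 549 cells, Il12b had 2 UMIs.

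In library 1 the cluster highest in Il1a was also highest in Il1b and Il12b among the larger units. Il1b stood at 175 CPM (165 to 186) in cluster 3 and at 2.50 CPM (1.14 to 4.74) in cluster 5, led by the heat shock genes Hspa1b and Hspa1a. Of the 63 Il12b UMIs of library 1, 48 lay in 6 cells of cluster 3. Another 11 lay in 1 of the 6 library 1 cells of cluster 8. Il1rn had 6 UMIs in cluster 3 and none in clusters 2 and 7. Without cluster 8, Il1b stood at 63.7 CPM in library 2 and 61.4 CPM in library 1, Il1rn at 3.57 and 0.429 CPM, and Il12b at 3.03 and 2.03 CPM.

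Il18bp, Il18, Il15 and Il10ra were more even. In the 4 microglia-like units of library 2, Il18bp lay between 100 CPM (cluster 10) and 167 CPM (cluster 8), and in the 5 of library 1 it lay between 0 (cluster 12) and 3.97 CPM (cluster 3). These ranges do not overlap. The 6 library 1 cells of cluster 8, too few for a unit, held 8 UMIs of Il18bp in 3 cells (60.8 CPM; 26.2 to 120). The highest Il18bp level of library 2 was in cluster 9, a mixture of cells with endothelial, fibroblast and red blood cell markers and 103 cells of library 2, at 278 CPM (233 to 329). The 88 cells of library 1 in the same cluster had 18.6 CPM (7.48 to 38.4). The cells of the cluster differed between the libraries: its fibroblast markers summed to 9051 CPM in library 2, against 335 CPM in library 1, and its red blood cell markers to 0 in library 2, against 16162 CPM in library 1, so these 2 levels come from unlike cells. Il18 ranged from 47.1 to 54.7 CPM in the microglia-like units of library 2 and from 16.9 to 48.0 CPM in those of library 1. Il15 ranged from 15.6 to 23.8 CPM in library 2 and from 11.2 to 23.3 CPM in library 1, ranges that overlap. Il10ra ranged from 235 to 356 CPM in library 2 and from 366 to 635 CPM in library 1. These values do not overlap, but the intervals of the nearest units do, 343 to 369 CPM in cluster 1 of library 2 and 346 to 386 CPM in cluster 5 of library 1. Cluster 12 set the lower end of library 1 for Il18bp, Il18 and Il15 and the upper end for Il10ra. Its 69 cells of library 1 were shallow, with a median of 2281 UMIs. They held 0 UMIs of Il18bp, 3 of Il18 (3.48 to 49.3 CPM) and 2 of Il15.

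**Figure D4:**
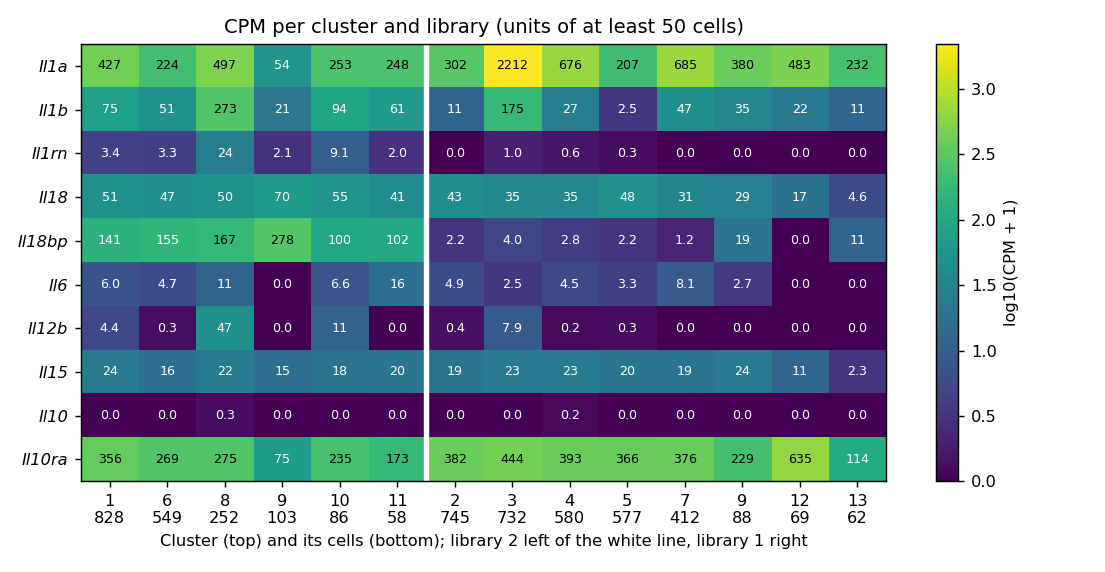
CPM of each member in the 14 combinations of cluster and library with at least 50 cells, printed in each box and coloured by log10(CPM + 1); library 2 is left of the white line and library 1 right of it, with cluster numbers and cell counts below. Il1a reaches 2212 CPM in cluster 3, Il12b reaches 47.2 CPM in cluster 8, and Il18bp is at 18.6 CPM or less in every box of library 1.

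Small clusters held some of the rarest members. Cluster 16, with 10 cells of library 1 led by Ifitm1, Cyp11a1, Cd200r3, Fcer1a and Cd7, had no name under the marker lists, and Il6 stood at 405 CPM (259 to 602) in it, with 24 UMIs in 8 of the 10 cells. That is 24 of the 131 Il6 UMIs of library 1, and without this cluster Il6 stood at 6.41 CPM in library 2 and 4.16 CPM in library 1. Border macrophage-like cells, 43 cells of library 1 led by Pf4 and Ms4a7, held 6 of the 7 Il10 UMIs of that library in 1 cell. Il1b stood at 165 CPM (130 to 205) in these cells, close to cluster 3, and Il1a at 525 CPM. No cell of library 2 lay in either cluster.

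Markers of other cell types also differed between the libraries. The monocyte list came to 72.1 CPM in library 2, against 10.9 CPM in library 1, and Plac8 gave 1438 of its 1462 UMIs in library 2. Ccr2, the chemokine receptor gene of inflammatory monocytes, had 12 UMIs in library 2 and 55 in library 1. The monocyte list summed to 74.8 CPM in cluster 8, where Il1b and Il12b were highest. In cluster 6, where Il12b was lowest among the microglia-like units of library 2, it summed to 73.6 CPM. Among these units the list was highest in cluster 10, at 177 CPM (154 to 203), and lowest in cluster 1, at 59.5 CPM. Cluster 10 came next after cluster 8 in Il1b and Il12b. The neutrophil list came to 198 CPM in library 2, against 167 CPM in library 1, but Csf3r gave 3997 of 4010 UMIs in library 2 and 4274 of 4307 in library 1, Retnlg and Mmp8 were at 0 in both libraries and S100a8 also in library 1. The border macrophage list summed to 28.7 CPM in library 2, with Cd163 at 0, and 91.6 CPM in library 1. The T or NK list summed to 1.82 CPM in library 2, with Gzma at 0, and 0.505 CPM in library 1, with Cd3e and Cd3g at 0. The dendritic cell list summed to 38.8 CPM in library 2, with Cd209a at 0, and 287 CPM in library 1, and to 39.6 and 290.1 CPM in the microglia-like cells of library 2 and library 1. Fscn1, an actin-bundling protein gene, gave 708 of its 787 UMIs in library 2 and 7245 of its 7391 in library 1. Among the microglia-like units, this list was highest in cluster 3, at 403 CPM, where Il1a was also highest. The part of these cells in the differences between libraries was not tested. In microglia-like clusters alone, the log2 ratios were -1.34 for Il1a, 0.60 for Il1b and 3.56 for Il18bp.

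The levels of response gene lists differed between the libraries as well. Immediate early genes, which rise within minutes of a stimulus or of tissue dissociation, made up 21036 CPM of library 2, against 57958 CPM of library 1. Interferon response genes made up 3821 CPM of library 2, against 517 CPM of library 1, and class II antigen presentation genes 15698 and 1151 CPM. Heat shock genes, which rise with protein-damaging stress, made up 1109 CPM of library 2, against 2445 CPM of library 1. Their part in the differences between libraries was not tested. Within a library they could be set against the members cell by cell, by ranking microglia-like cells on the share of their UMIs in a list and cutting them into 4 quartiles.

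By immediate early share, Il1a in library 2 stood at 220, 342, 410 and 504 CPM from the lowest to the highest quartile. In library 1 it stood at 1083, 941, 848 and 896 CPM, without that order. The Il1b quartiles of library 2 were 81.3, 95.7, 105 and 144 CPM, and those of library 1 72.7, 58.5, 59.0 and 75.1 CPM. Il1rn went the other way in library 2, at 16.5 CPM (13.1 to 20.7) in the lowest quartile and 3.53 CPM (1.98 to 5.83) in the highest. These were 78 and 15 UMIs, and UMIs of Il1rn gathered in few cells of library 2, which the intervals do not cover. Il18bp varied less there, at 164 CPM in the lowest and 124 CPM in the highest quartile.

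By interferon response share, Il1a in library 2 was nearly flat, at 344, 360, 372 and 385 CPM. In library 2, Il1rn stood at 2.59 CPM (1.29 to 4.63) in the lowest quartile and 20.1 CPM (16.3 to 24.5) in the highest. Il12b stood at 1.18 and 22.6 CPM in those quartiles. The UMIs were 11 and 96 for Il1rn and 5 and 108 for Il12b, and both genes gathered in few cells. In library 1, Il12b stood at 0.208 CPM (1 UMI) in the lowest and 9.86 CPM in the highest quartile. Il18bp in library 2 lay between 134 CPM in the lowest and 169 CPM in the highest quartile, a narrow span beside the gap between the libraries. In library 1 even the quartile with the most interferon response UMIs held 7.12 CPM of Il18bp.

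By class II share, both interleukin-1 genes were higher in the top than in the bottom quartile of each library. Il1a stood at 284, 356, 389 and 430.5 CPM from the lowest to the highest quartile of library 2, and at 537, 780, 970 and 1420 CPM in library 1. The Il1b quartiles were 40.2, 92.0, 146 and 140 CPM in library 2, against 23.6, 50.9, 60.5 and 124 CPM in library 1.

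By heat shock share, the order of the Il1a quartiles differed between the libraries. Il1a stood at 297, 338, 386 and 438 CPM from the lowest to the highest quartile of library 2, and at 944, 985, 1030.3 and 798 CPM in library 1. The level of Il18bp was 156 CPM in the lowest and 146 CPM in the highest quartile of library 2, and 3.77 and 2.93 CPM in library 1.

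**Figure D5:**
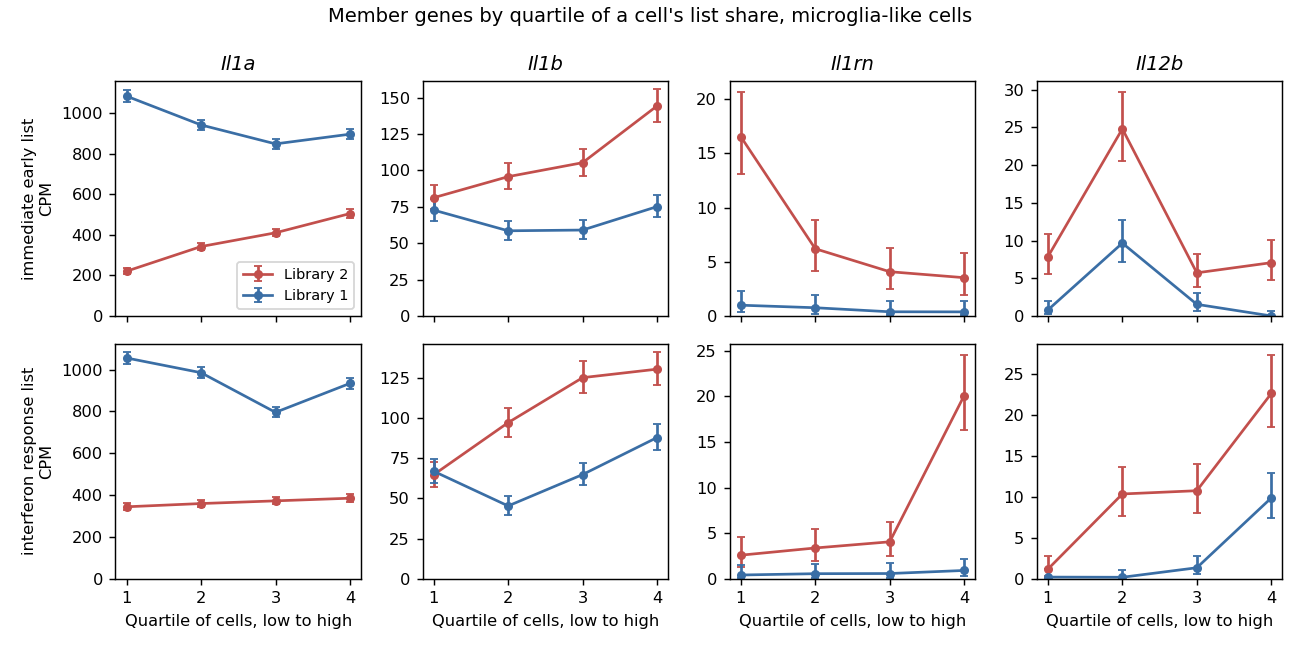
Level (CPM, exact Poisson 95% intervals) of Il1a, Il1b, Il1rn and Il12b in microglia-like cells by quartile of the share of a cell's UMIs in the immediate early list (top row) or the interferon response list (bottom row), for library 2 (red) and library 1 (blue). Il1a climbs with the immediate early list in library 2 (220 to 504 CPM) and not in library 1, and Il12b is highest in the top interferon quartile of both libraries (22.6 and 9.86 CPM).

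Cells rich in Il1a were also rich in Il1b in both libraries. In library 2 the level of Il1b was 20.4 CPM in the 423 cells with no Il1a UMI, 56.6 CPM with 1 to 4, 118 CPM with 5 to 9, 280 CPM with 10 to 19 and 758 CPM (669 to 857) in the 23 cells with 20 or more. In library 1 it was 11.2, 24.4, 38.6, 132 and 223 CPM over the same steps. Il18bp in library 2 kept one level over these steps, at 145, 147, 142, 145 and 170 CPM. Of the cells with Il1b, 369 of 392 in library 2 (94.1%) and 295 of 316 in library 1 (93.4%) also held Il1a. Conversely, 24.6% of Il1a cells in library 2 and 11.2% in library 1 held Il1b. Deeper cells show more of every gene, and the median depth climbed over the Il1a steps, with 7695 UMIs at none and 13237 UMIs at 20 or more in library 2. Thinned to equal depth, Il1b was found in 8.55% of Il1a cells and 4.52% of the others in library 2, and in 7.07% and 1.78% in library 1. At full depth, Il12b cells overlapped with Il1b cells, 29 of 47 in library 2 (61.7%) and 3 of 10 in library 1. Of all kept cells, 20.4% and 9.28% held Il1b. Thinned to equal depth, 2 of 9 Il12b cells of library 2 and 1 of 3 of library 1 held Il1b, too few to compare.

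For each member with at least 200 UMIs the 3 genes with the most similar pattern over the 14 units were listed, by Pearson correlation of log2(CPM + 10) among 9779 genes. The units share 2 libraries, so a gene that differs between the libraries takes part of its pattern from that alone. Il1a was most like the kinase gene Map3k8 (r = 0.97), with Marcksl1 (0.96) and Rnf19b (0.95) next, and Il1b most like Zc3h12c (0.91), the prostaglandin receptor gene Ptger4 (0.90) and the pattern recognition receptor gene Tlr2 (0.88). Il18bp was most like AB124611 (0.99), the nucleic acid sensor gene Zbp1 (0.98) and the interferon regulatory factor gene Irf7 (0.98). Il18 was most like Aif1 (0.97), the caspase-1 gene Casp1 (0.96) and Lst1 (0.96), and Il10ra like Ptprc (0.98), which encodes CD45, Epha2 (0.98) and Zfp710 (0.97). For the rarer members the leading genes were Ermard for Il6 (0.88), and Olfr981 (0.87) and Acod1 (0.85) for Il12b.

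The other interleukins, receptors and signalling genes were taken from 7 lists of 103 genes, of which 98 were in the feature list and 65 had at least 20 UMIs. Past the 2-fold threshold, 5 of the 65 were higher in library 2, 1 was lower and 59 lay between, beside 2.76% and 1.92% of all genes. Their median log2 ratio was -0.03. Receptor chains led the higher ones. Il15ra, whose product binds interleukin-15 and presents it to neighbouring cells, stood at 89.7 CPM in library 2 and 9.31 CPM in library 1, and Il2rg, the common gamma chain of several interleukin receptors, at 148 and 28.4 CPM. Il12rb1, the chain that binds p40, stood at 21.0 CPM in library 2 and 0.233 CPM in library 1, from 426 and 6 UMIs. The fifth and last of the higher genes beside the interleukin-27 subunit gene Il27 (39.8 CPM in library 2 and 6.09 CPM in library 1) was Il3ra, at 24.4 and 6.91 CPM. The lower gene was Nlrp3, the inflammasome sensor upstream of caspase-1, with 72.6 CPM in library 2, against 245 CPM in library 1, and a fold of 0.296 (0.280 to 0.314). The fold of the ligand gene Il15 had an interval that included 1, while the gene of its presenting receptor was 9.63-fold (8.41 to 11.1) higher in library 2. None of the 9 genes with enough UMIs among the other ligands, receptors and decoys of the interleukin-1 family, none of the 11 of the interleukin-6 family and none of the 4 of the interleukin-10 family was past 2-fold.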

How the data were processed

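The UMI counts per gene and barcode were deposited as whole numbers by the authors, in Cell Ranger output (software 3.1.0, matrix format 2, per the file headers). Of the other tools in the submitters' processing notes, bcl2fastq and UMI-tools, no version is stated, and build, annotation and strand setting of the counting were not given in the sources used. No source ties a barcode suffix to EAE or healthy mice.

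Cells were filtered as described, leaving out 512 barcodes in library 2 and 432 in library 1. UMIs were summed and scaled to CPM in Python 3.11.15 with NumPy 2.4.6, pandas 2.3.3 and SciPy 1.17.1. The 159 genes of the members, pathway and response lists were set aside before clustering in Scanpy 1.11.5 (2000 variable genes, 30 principal components, 15 neighbours, Leiden resolution 1). A cluster took a name from at least 3 markers of 1 of 18 lists among its 50 highest folds, or as microglia-like from at least 5 of 7 microglia markers at 100 CPM. It stayed unnamed where another list, with at least 1 marker, matched or passed it among its 10 highest folds, or where depth was low and none of its own markers was there. The dividing list marks a state and gave no class. Named genes were the members, the pathway genes past 2-fold, the 3 genes most like each member and the 5 leading genes of a cluster. Single marker genes, Numa1 and Il1bos were picked after seeing their values. Cells were thinned once, with a fixed seed. Ratios and thinning were tested on simulated data. Members and lists were chosen with earlier results of these data known. The genes most like Il15 are not reported here.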

Additional observations from a re-analysis of the deposited data

Results flagged for a closer look

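The cell filter left out 512 barcodes of library 2, with 990507 UMIs in all, and 432 barcodes of library 1, with 503110 UMIs, which no comparison above uses. Members with more than 3 UMIs in the left-out barcodes of a library are given here. Il1a had 22 UMIs in the left-out barcodes of library 2 and 19 in those of library 1, or 22.2 and 37.8 CPM. Il18 had 13 UMIs in library 2 and 14 in library 1, or 13.1 and 27.8 CPM. Il10ra had 10 UMIs in each, or 10.1 CPM in library 2 and 19.9 CPM in library 1. Il18bp had 18 UMIs in library 2, or 18.2 CPM (10.8 to 28.7), and 0 in library 1, which allows up to 7.33 CPM. Il1b had 4 UMIs and Il15 had 5 UMIs in library 2. All of these levels lay below those of the kept cells of the same library.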

How the results depend on the processing

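No paired analysis was possible because each group was 1 pooled sample. With a pseudocount of 1 CPM, 3 members were at least 2-fold higher in library 2 (Il18bp, Il1rn and Il12b), against 1 with 10 CPM. Of the pathway lists, 6 genes were higher, against 5, with Sigirr added, and 4 were lower (Nlrp3, Il1rl1, Il27ra and Il7r), against 1. Without cluster 3, a setting chosen after seeing the data that takes cells from library 1 alone, 2 members were higher and 0 were lower. The higher members were Il18bp and Il1b, with a log2 ratio of 1.49 for Il1b. The other settings tried kept 1 member higher and 1 lower. The share of all genes past 2-fold was taken only with 10 CPM over all kept cells, so none stands beside the changed counts. The difference in the share of cells with Il1a, library 2 minus library 1, was -13.5 percentage points in cells thinned to 1000 UMIs and 0.95 on all UMIs, a change of sign. Over 20 such differences of members at other depths, 4 stayed within their counting interval, 15 moved by more and 1, that of Il1a, turned. Over 130 log2 ratios of single members under other settings, 111 moved by less than their counting interval, 19 moved by more and 0 of the called ones turned. Ratios of Il15 and Il10, both near 0, changed sign under some. Scaling moved the median of all genes by less than 0.1. Cells, mice and libraries cannot be told apart as sources of spread, since each pool is 1 library, and members with few UMIs (Il10, Il1rn, Il6 and Il12b) are limited by depth.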
